A study of Arabidopsis thaliana with 63 samples.

Results

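Transposable elements (TEs) that gave almost no RNA in wild-type (WT) seedlings are described here in 2 mutants that lack the histone variant H2A.W. The elements were chosen by a single value, a mean normalized count under 1 in WT in the table that sets h2a.w-2 against WT. This rule took 2729 of the 3091 TEs in the tables and left 362 with a WT mean of at least 1. A mean normalized count is the average, over the libraries of a genotype, of read counts divided by a library size factor. Because the elements were selected on a low WT value, the rule favours apparent rises in the mutants, so no test of a mutant against WT was made over them.

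The RNA-seq libraries came from 10-day-old Arabidopsis Col-0 seedlings grown in long days, with 3 libraries for each of 3 genotypes. The h2a.w-2 mutant combines hta6-2, a frameshift allele made with CRISPR-Cas9, with T-DNA insertions in hta7 and hta12. The h2a.w-1 mutant combines the T-DNA allele hta6-1 with the same hta7 and hta12 insertions, and it also carries a rearrangement that doubles a region of chromosome 1. WT was Col-0 without these alleles. Nothing in the labels says that the libraries of a genotype come from separate cultures, so p-values measure only the spread between these libraries.

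As background, TEs are mobile DNA sequences that plants keep silent by packing them into heterochromatin. In Arabidopsis, silencing involves CG methylation maintained by MET1, non-CG methylation placed by CMT3, CMT2 and the small RNA-directed pathway, methylation of histone H3 by SUVH4 and related enzymes, and remodelling by DDM1. H2A.W replaces other H2A histones in heterochromatin and is encoded by HTA6, HTA7 and HTA12.

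Reads of the single libraries were recovered from the deposited means, for 29881 of 29961 features and for every one of the 3091 TEs. The libraries of a genotype are called A, B and C in order of decreasing size factor, and a letter pairs nothing across genotypes. The recovered depth was 5812579 to 8346181 reads in h2a.w-2-labelled libraries, 6800695 to 9046881 in h2a.w-1 and 6317597 to 9391308 in WT. HTA6 had 312, 274 and 136 reads in h2a.w-2-labelled libraries, 65, 54 and 42 in h2a.w-1, and 949, 902 and 751 in WT. HTA7 had 111, 78 and 56 reads in h2a.w-2-labelled libraries, 96, 84 and 82 in h2a.w-1, and 795, 759 and 532 in WT. HTA12 had 28, 107 and 17 reads in h2a.w-2-labelled libraries, 19, 19 and 19 in h2a.w-1, and 97, 113 and 86 in WT. HTA12 in the library labelled h2a.w-2 B thus lay among the WT values, against its label, and counts, sums and fits for this mutant are also given without it. Leaf markers RBCS1A, CAB1 and CA1 had means of 18298, 38361 and 4016 in h2a.w-2, 29539, 51469 and 10563 in h2a.w-1, and, in the h2a.w-2 table, 20200, 39971 and 4199 in WT. The summed pollen markers gave 0 reads in each h2a.w-2 library, 0 to 1 in h2a.w-1 and 0 in WT, with DUO1 not among the features, and flower markers gave 2 to 9 reads in h2a.w-2, 7 to 17 in h2a.w-1 and 5 to 13 in WT. Seed storage markers moved with 1 genotype: all 3 together gave 3, 2 and 6 reads in h2a.w-2-labelled libraries, 21, 216 and 264 in h2a.w-1, and 2, 3 and 0 in WT. Their part in the h2a.w-1 values below was not tested.

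In both mutants most of the WT-silent elements had no read or a single read. In bulk seedlings, fewer cells that express an element and less RNA per cell cannot be told apart. In h2a.w-2-labelled libraries, 1510 elements (55.3%) had no read in any of the 3 libraries, 881 had 1 read in all, 198 had 2, 57 had 3 and 83 had 4 or more. In h2a.w-1, 1646 elements (60.3%) had no read, 801 had 1, 156 had 2, 52 had 3 and 74 had 4 or more. In WT the rule itself set the upper end, and the elements held 0 to 3 reads: 1525 had none, 909 had 1, 215 had 2 and 80 had 3. Only 5 elements reached 10 reads over h2a.w-2-labelled libraries and 11 over those of h2a.w-1, and 2 and 4 of these reached 20. The highest totals were 106 reads in h2a.w-2 and 35 in h2a.w-1. In all 9 libraries together 237 elements (8.68%) had no read, and 827 had none in either mutant.

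The zeros are limited by depth. A count of 0 in a WT library, taken alone, allows an expected count of up to 3 reads there. Taken in each of the 3 libraries, this corresponds to a mean normalized count of 2.88 in the h2a.w-2 table and 3.00 in the h2a.w-1 table. Set library by library, this floor is higher than the limit that a total of 0 over the 3 libraries would give. This limit and the intervals below cover counting error only. An element with 1 read and an element with none cannot be told apart at this depth.

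Summed over the elements and scaled to 1000000 recovered reads per library (RPM), reads came to 95.7, 89.4 and 81.2 in h2a.w-2-labelled libraries, 63.1, 58.8 and 109 in h2a.w-1, and 49.1, 92.7 and 45.4 in WT. Means were 88.8 ± 7.25 in h2a.w-2, 77.0 ± 27.9 in h2a.w-1 and 62.4 ± 26.3 in WT (SD, n = 3 each). The 3 genotypes overlapped, because library C of h2a.w-1 and library B of WT each stood well above the other libraries of their genotype. The WT sums are held down by the rule, so they are given as a description. WT library B had a read on 732 elements, against 399 in WT library A and 275 in WT library C, although its depth of 8966092 reads was below the 9391308 of library A. Of those 732 elements, 638 had exactly 1 read.

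The spread between libraries was seen in part on other features near zero and less on TEs with more WT reads. On genes with a WT mean under 1, WT library B also stood highest in WT, at 160 RPM against 136 and 110. Library C of h2a.w-1 did so in its genotype, at 462 RPM against 294 and 321. On the 362 other TEs, the 3 h2a.w-2-labelled libraries held 1483, 1456 and 1398 RPM, those of h2a.w-1 1236, 1250 and 1373, and those of WT 1357, 1364 and 1233. There WT library B was level with WT library A. Library C of h2a.w-1 was above its 2 companions by a smaller margin, in proportion, than on the silent elements. Elements with only 1 or 2 reads in a genotype held 63.3% of the reads on the silent elements in h2a.w-2, 62.2% in h2a.w-1 and 84.8% in WT.

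**Figure D1:**
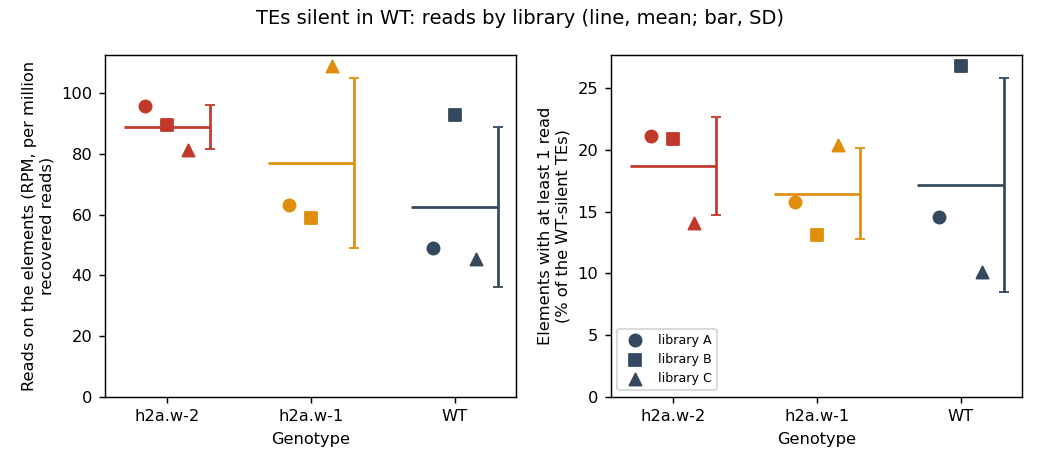
Reads on the 2729 WT-silent TEs in RPM (left) and share of these TEs with at least 1 read (right), by genotype. Each point is a library, the line is the mean and the bar the SD of 3 libraries. Library B of WT (92.7 RPM) lies among h2a.w-2-labelled libraries (81.2 to 95.7), and library C of h2a.w-1 (109) is the highest of all 9.

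How many elements gained reads depends on where the line is drawn. In h2a.w-2 the mean was above that of WT for 1095 elements, below it for 870, and 0 in both for 764. In h2a.w-1 it was above WT for 952 elements, below for 929, and 0 in both for 848. A mean of at least 1 was reached by 114 elements (4.18%) in h2a.w-2 and by 104 (3.81%) in h2a.w-1. A mean of at least 2 was reached by 27 elements in h2a.w-2 and 29 in h2a.w-1, of at least 5 by 3 and 4, and of at least 10 by 1 and 2. Both mutants were set against the same WT libraries, so these counts are not independent of each other.

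For a count under a like rule, the rule was turned round. Of the 2681 TEs with a mean under 1 in h2a.w-2, 66 (2.46%) reached at least 1 in WT, 12 at least 2 and none 5, with a highest WT mean of 2.61. Of the 2689 TEs with a mean under 1 in h2a.w-1, 83 (3.09%) reached at least 1 in WT, 14 at least 2, 1 at least 5 and none 10, with a highest WT mean of 5.01. The counts in the mutants were above those of the mirrored rule at each level, by 114 against 66 and 104 against 83 at a mean of 1. The mirrored counts would also take in any TE that is lower in a mutant, so they do not measure the effect of the rule alone. The differences are descriptions and were not tested.

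The level of 1 sits on a step of the scale. A single read in each of the 3 libraries gives a mean of 1.08 in h2a.w-2 but 0.96 in WT of the same table, since a read is worth 0.298 to 0.470 there and 0.273 to 0.405 in WT. Counted in reads, 140 of the elements had at least 3 reads in h2a.w-2, against 124 TEs with at least 3 reads in WT under the mirrored rule. At 6 reads the counts were 28 and 20, and at 10 reads 5 and 0. For h2a.w-1 they were 126 against 123 at 3 reads, 32 against 19 at 6 and 11 against 4 at 10. At 3 reads the mutants and the mirrored WT counts lay close together, and they parted at the few elements with more reads. These read counts were not scaled to depth, which was 5812579 to 8346181 reads in h2a.w-2-labelled libraries and 6317597 to 9391308 in WT. A fixed number of reads is thus a stricter line in h2a.w-2 than in WT.

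Starting only from the 1525 elements with no WT read at all, 28 reached a mean of at least 1 in h2a.w-2 and 1 reached 2. Turned round, 11 of the 1521 TEs with no read in h2a.w-2 reached 1 in WT and none reached 2. In h2a.w-1, 23 of the 1525 elements reached 1 and 4 reached 2, against 20 and 2 of the 1660 TEs with no h2a.w-1 read when looked at in WT.

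Every h2a.w-2-labelled library exceeded every WT library for 32 elements and lay below for 2. For h2a.w-1 the numbers were 30 above and 3 below. Over all 29881 features, 7.8% had every h2a.w-2 library above every WT library, and 14.6% had every h2a.w-1 library above. Under the mirrored rule WT was above for 10 and 16 TEs. The rule used WT, so nothing is read from these counts.

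Leaving out 1 library moved the counts. Without the library labelled h2a.w-2 B, the one at odds with its label for HTA12, 138 elements reached a mean of 1 in h2a.w-2, 30 reached 2 and 4 reached 5, against 73, 13 and 1 of 2664 TEs under the mirrored rule. In the 2 libraries left, 1871 elements had no read, 70 had at least 3 and 4 had at least 10, and both libraries exceeded every WT library for 73 elements, as they did for 12.5% of all features. In h2a.w-1 the count at a mean of 1 was 148 without library A, 161 without library B and 72 without library C, where the sum over the elements was highest. The count at a mean of 2 was 45 without library A of h2a.w-1, above the 29 with all libraries by more than 1.5 times.

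**Figure D2:**
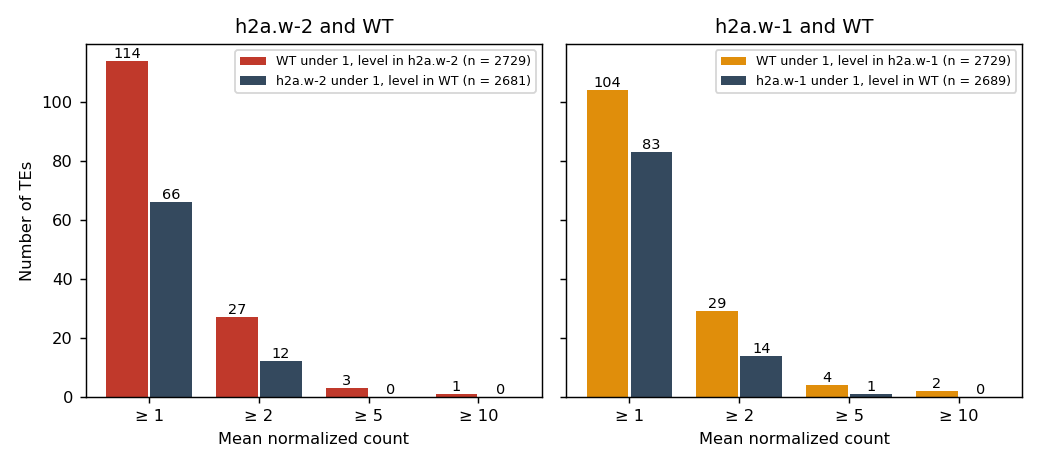
Numbers of TEs (y axis) at or above a mean normalized count of 1, 2, 5 and 10 (x axis) for the rule and for its mirror image, for h2a.w-2 (left) and h2a.w-1 (right). Coloured bars count TEs with a WT mean under 1 by their mutant level, and dark bars count TEs with a mutant mean under 1 by their WT level. At a mean of 1 the counts are 114 and 66 for h2a.w-2 and 104 and 83 for h2a.w-1, and at a mean of 10 they are 1 and 0, and 2 and 0.

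The elements with the highest means are given one by one. Since the rule kept WT low, it pushes upward their ratios to WT and how often mutant libraries lie above WT libraries. Both are descriptions, and the 95% intervals beside the ratios cover the counting of reads only and test nothing. The highest element in h2a.w-2 was AT2TE27645, on chromosome 2. It had 53, 34 and 19 reads in h2a.w-2-labelled libraries, 1, 4 and 5 in h2a.w-1, and 0, 1 and 0 in WT. Divided by size factors, these h2a.w-2 reads were 47.4, 31.8 and 26.8, a mean of 35.3 ± 10.7 (SD, n = 3), so library B was not the source of the high value. Its h2a.w-2 mean was 126 times that of WT, with a 95% counting interval of 20.7 to 4706 since WT held a single read, and its h2a.w-1 mean of 3.58 was 12.2 times that of WT (1.47 to 448). This element held 5.26% of all reads on the silent elements in h2a.w-2, and the 5 highest elements together held 8.53%. In h2a.w-1 the highest element held 1.96% and the 5 highest 7.1%.

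AT5TE37665, on chromosome 5, is the highest element with no WT read. It had 13, 9 and 4 reads in h2a.w-2-labelled libraries, 4, 6 and 13 in h2a.w-1, and 0, 0 and 0 in WT. The means were 8.56 ± 2.99 in h2a.w-2 and 8.27 ± 6.24 in h2a.w-1 (SD, n = 3 each). Against a floor of 3 reads per WT library these means are at least 2.97-fold and at least 2.75-fold higher. Each of the 6 mutant libraries held reads, which places them above WT by the choice of an element with no WT read.

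AT3TE53215, on chromosome 3, was likewise present in both mutants. It had 3, 6 and 10 reads in h2a.w-2-labelled libraries, 8, 4 and 22 in h2a.w-1, and 0, 1 and 1 in WT. The mean was 7.46 in h2a.w-2, 10.9 times that of WT (2.55 to 93.7), and 12.3 in h2a.w-1, 17.3 times that of WT (4.50 to 151). Its library C stood highest in both mutants, and in h2a.w-1 this library held 22 of the 34 reads.

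A pair of elements was high mainly in h2a.w-1. AT5TE29590, on chromosome 5, had 4, 2 and 0 reads in h2a.w-2-labelled libraries, 11, 12 and 12 in h2a.w-1, and 0, 1 and 0 in WT. Its mean was 1.81 in h2a.w-2 and 11.9 ± 2.21 in h2a.w-1 (SD, n = 3), 40.5 times that of WT (6.07 to 1467). AT4TE19655, on chromosome 4, had 4, 1 and 1 reads in h2a.w-2-labelled libraries, 7, 9 and 7 in h2a.w-1, and 1, 1 and 0 in WT. Its h2a.w-1 mean of 7.78 ± 1.40 was 13.4 times that of WT (2.93 to 104). In both elements every h2a.w-1 library was above every other library.

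The other elements among the 12 highest of either mutant had 7 to 12 reads over the 3 libraries of the mutant that placed them there. AT3TE91870 had 5, 1 and 5 reads in h2a.w-2-labelled libraries, 4, 3 and 1 in h2a.w-1, and 0, 2 and 1 in WT. AT1TE42900 had 3, 2 and 4 reads in h2a.w-2, 3, 3 and 0 in h2a.w-1, and 1, 1 and 1 in WT. AT3TE48540 had 4, 3 and 2 reads in h2a.w-2, 0, 0 and 1 in h2a.w-1, and 1, 1 and 1 in WT. Of these only AT3TE48540 had every h2a.w-2-labelled library above all 6 others. AT5TE81510 had 3, 1 and 0 reads in h2a.w-2, 3, 4 and 5 in h2a.w-1, and 2, 1 and 0 in WT. AT1TE29570 had 2, 0 and 1 reads in h2a.w-2, 4, 5 and 3 in h2a.w-1, and none in WT, and its h2a.w-1 mean was at least 1.33-fold higher than the WT floor. AT5TE34080 had 0, 2 and 0 reads in h2a.w-2, 3, 3 and 4 in h2a.w-1, and 1, 1 and 0 in WT. The last 3 elements had each h2a.w-1 library above each WT library.

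Several of the highest means were uneven over the libraries. AT5TE31475 reached a mean of 3.02 in h2a.w-2 with 7, 3 and 0 reads, and AT5TE47205 reached 2.97 with 0, 2 and 5 reads. AT3TE38115 reached 3.57 in h2a.w-1 with 3, 1 and 6 reads, against 3, 0 and 0 in WT, and AT5TE21595 reached 2.85 with 3, 0 and 5 reads. In each of these at least 1 mutant library did not exceed the highest WT library. The remaining elements of this group are AT3TE00320, AT5TE20395, AT2TE43240 and AT2TE43395, among the 12 highest in h2a.w-2, and AT1TE36570 and AT3TE63400, among the 12 highest in h2a.w-1. Their means in the mutant that placed them there were 2.60 to 2.89 and 3.38 to 3.48.

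**Figure D3:**
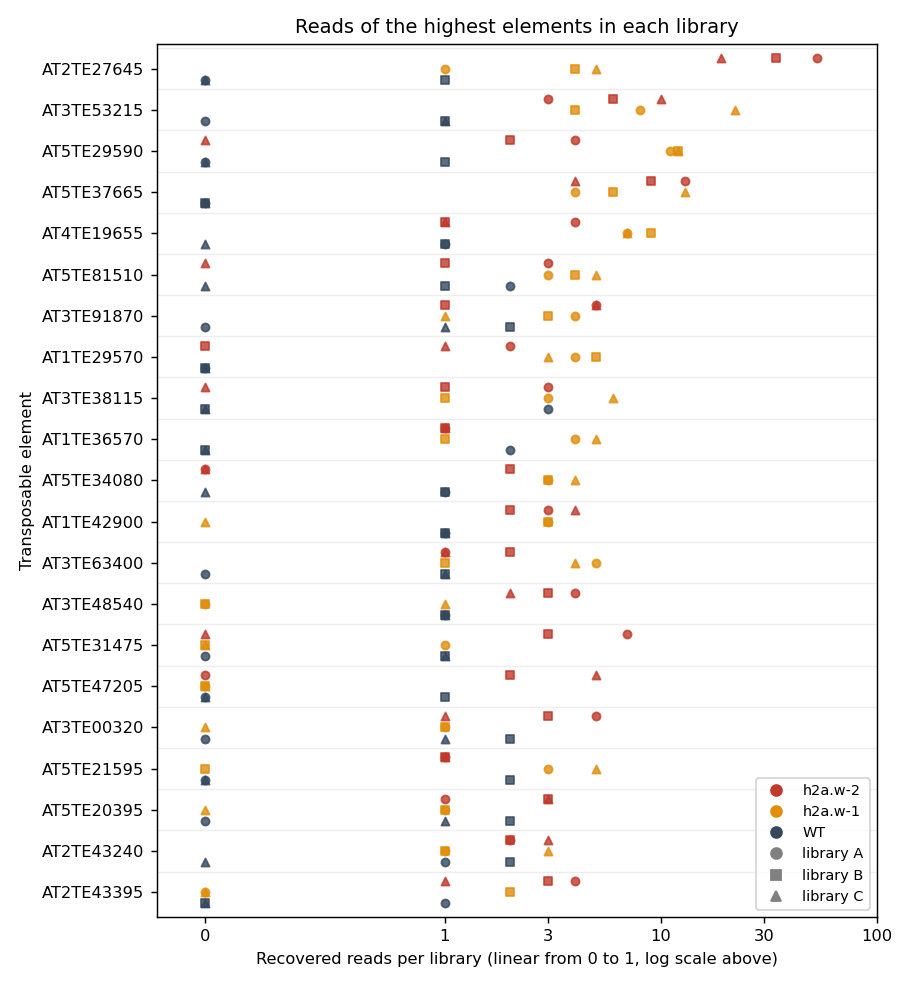
Recovered reads per library (x axis, linear to 1 and logarithmic above) for the elements among the 12 highest in either mutant, ordered by their higher mutant mean. Colours mark the genotype and shapes the library, and within a row h2a.w-2 is above h2a.w-1 and WT is lowest. AT2TE27645 at 19 to 53 reads in h2a.w-2 and AT5TE29590 at 11 to 12 reads in h2a.w-1 stand clear of all other libraries, while most rows overlap at 0 to 5 reads.

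Elements on either side of the threshold held the same number of WT reads. Just inside it, AT1TE41345, AT1TE51735 and AT1TE67290 had 0, 2 and 1 WT reads, a mean of 0.968. Just outside it, AT4TE21295, AT4TE29785 and AT5TE11670 had 1, 0 and 2 WT reads, a mean of 1.08. In h2a.w-2 the inner elements had means of 0.907, 0.609 and 0, and the outer elements were all at 0.

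The 2 mutants were then compared with each other, a contrast that uses no WT value. Reads were fitted with limma voom over 22022 features with at least 10 reads in the 6 libraries. Of these, 3.51% were called higher and 1.76% lower in h2a.w-2 than in h2a.w-1, with an adjusted p under 0.05 and a log2 fold change beyond 1 in either direction. Only 34 of the 2729 silent elements had enough reads to enter, and 1 was called higher and 1 lower. The filter summed reads over both mutants, so an element could enter through the mutant in which it was high. AT5TE29590, for example, had 35 reads in h2a.w-1 and 6 in h2a.w-2. AT2TE27645 was higher in h2a.w-2, with a log2 fold change of 3.55 (SE 0.61, adjusted p = 0.00936). AT5TE29590 was lower in h2a.w-2, with a log2 fold change of -2.50 (SE 0.64, adjusted p = 0.0381). All other elements in the test missed the threshold, among them AT3TE48540 (2.37, adjusted p = 0.0722), AT4TE19655 (-1.74, adjusted p = 0.0793), AT3TE53215 (-0.53, adjusted p = 0.712) and AT5TE37665 (0.44, adjusted p = 0.668). The call on AT2TE27645 was made in each of the 6 fits that left out 1 library (log2 fold change 2.83 to 3.98, adjusted p 0.0133 to 0.0432), the library labelled h2a.w-2 B included. The call on AT5TE29590 was lost in each of those 6 fits (log2 fold change -3.06 to -1.90, adjusted p 0.0521 to 0.0955), whichever library was left out. The other 2695 elements had too few reads to be tested, so no statement on them follows from this fit.

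Summed over all silent elements, h2a.w-2 held 11.7 RPM more than h2a.w-1, a difference smaller than the spread of the h2a.w-1 libraries (two-sided exact permutation test, p = 0.5, with 0.1 the smallest p that 3 against 3 libraries allow). The difference was 27.8 without library C of h2a.w-1, 2.64 without library B and 4.78 without library A of that mutant. It was 11.4 without the library labelled h2a.w-2 B, and 8.86 without AT2TE27645 and AT5TE29590. The exact permutation p was 0.1 without library C of h2a.w-1, the smallest that these libraries allow, and 0.6 to 0.9 in the other 4 cases.

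The silent elements were most of the TEs with deposited counts, and their share of these was nearly equal on the 5 chromosomes. TEs without deposited counts are not covered. They were 557 of 635 TEs on chromosome 1 (87.7%), 547 of 607 on chromosome 2 (90.1%), 519 of 586 on chromosome 3 (88.6%), 506 of 572 on chromosome 4 (88.5%) and 600 of 691 on chromosome 5 (86.8%). Elements with a mean of at least 1 in h2a.w-2 numbered 25, 24, 26, 17 and 22 on chromosomes 1 to 5. Under the mirrored rule 11, 13, 14, 13 and 15 TEs reached 1 in WT. In h2a.w-1 there were 24, 22, 19, 20 and 19 elements at 1 or above, against 15, 12, 23, 12 and 21 TEs in WT under the mirrored rule. At a mean of 1 the h2a.w-2 count was above the mirrored one on all 5 chromosomes, and the h2a.w-1 count was below on chromosomes 3 and 5. This did not hold at a mean of 2. There h2a.w-2 had 3, 5, 9, 2 and 8 elements, against 1, 3, 2, 4 and 2 mirrored, so it was below on chromosome 4. At the same level h2a.w-1 had 4, 5, 7, 5 and 8, against 3, 2, 2, 3 and 4 mirrored, above on all 5 chromosomes. Without the library labelled h2a.w-2 B the h2a.w-2 counts at a mean of 1 were 32, 27, 29, 21 and 29.

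On every chromosome the libraries of both mutants overlapped in their sums. Reads on the silent elements came to 367, 480, 403, 319 and 447 on chromosomes 1 to 5 in h2a.w-2, to 366, 353, 344, 312 and 414 in h2a.w-1 and to 324, 313, 308, 292 and 342 in WT. Chromosome 2 had the largest difference between the mutants, 5.92 RPM (21 ± 4.02 in h2a.w-2 and 15.1 ± 4.66 in h2a.w-1, SD, n = 3 each, exact permutation p = 0.3), and it carries the 106 h2a.w-2 reads of AT2TE27645. On chromosome 3 the difference was 3.08 (p = 0.5), on chromosome 5 it was 1.73 (p = 0.8), on chromosome 4 it was 0.634 (p = 0.8) and on chromosome 1 it was 0.36 (p = 1), each by exact permutation. Adjusted over the 7 sets compared, every p was 1. Without the library labelled h2a.w-2 B the differences were -0.565, 6.65, 3.64, 0.452 and 1.24 RPM on chromosomes 1 to 5 (exact permutation p = 0.3 to 1), so the sign on chromosome 1 turned.

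A stretch of chromosome 1 within the region that is doubled in h2a.w-1 was looked at on its own. It spans the numbers of the TEs that the study lists with raised copy number there, and the rest of the doubled region was not analysed here. By their numbers, 21 silent elements lie in this stretch, of 27 TEs in the tables. They held 11 reads in h2a.w-2, 10 in h2a.w-1 and 10 in WT. The difference between the mutants was 0.0579 RPM (exact permutation p = 0.9), and -0.0132 without the library labelled h2a.w-2 B (exact permutation p = 1).

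TE numbers rise along each chromosome, and position was described by number alone. The middle quartiles of the TE numbers of each chromosome held 51.6% of the silent elements, against 49.9% of the 3091 TEs with deposited counts. They held 47 of the 114 elements at 1 or above in h2a.w-2 (41.2%) and 46 of the 104 in h2a.w-1 (44.2%). At a mean of 2 they held 10 of 27 elements in h2a.w-2 (37%) and 7 of 29 in h2a.w-1 (24.1%). Of the TEs with a WT mean of at least 1, which the rule left out, 37% lay there, and of the elements with no read in any library 55.3%. Of the elements with any read they held 50.6% in h2a.w-2 and 47.6% in h2a.w-1. Without the library labelled h2a.w-2 B they held 40.6% of the elements at 1 or above in h2a.w-2 and 33.3% of those at 2 or above. The middle of the numbering thus held a smaller share of the elements at 1 or above in a mutant than of the silent elements as a whole. This split was chosen after the values were seen and was not tested.

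**Figure D4:**
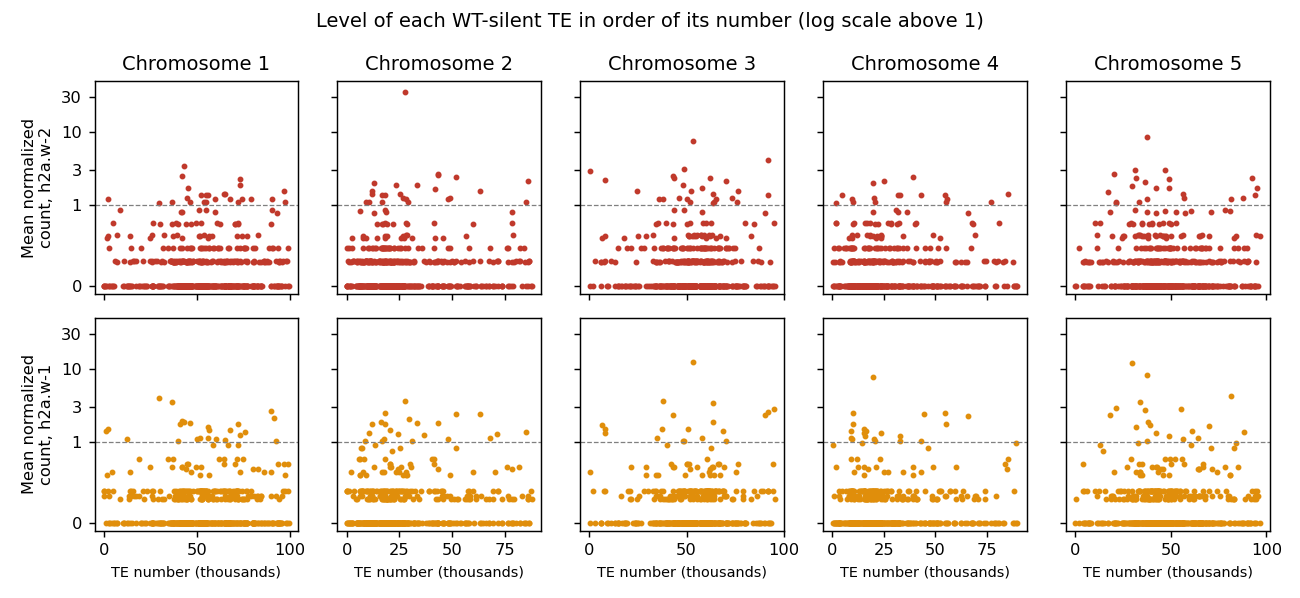
Mean normalized count of each WT-silent TE (y axis, linear to 1 and logarithmic above) by its TE number (x axis), for h2a.w-2 (top) and h2a.w-1 (bottom), 1 panel a chromosome. The dashed line marks a mean of 1. Most points lie at 0 or on the steps of 1 or 2 reads, and those above the line are scattered over all 5 chromosomes, with AT2TE27645 at 35.3 in h2a.w-2 as the highest.

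Genes chosen by the same WT rule were set beside the elements. Of 2555 protein-coding genes with a WT mean under 1, 304 (11.9%) reached 1 in h2a.w-2 and 376 (14.7%) in h2a.w-1. Of 1150 pseudogenes, a class that holds TE genes, 57 (4.96%) reached 1 in h2a.w-2 and 51 (4.43%) in h2a.w-1, close to the 4.18% and 3.81% of the silent TEs. Over all 4701 such genes the count was 456 (9.70%) in h2a.w-2, against 371 of 4616 genes (8.04%) under the mirrored rule, and 506 (10.8%) in h2a.w-1, against 490 of 4624 (10.6%). These shares are descriptions, since the same WT values chose the genes.

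The silencing machinery was measured in the same libraries, with 24 genes of DNA methylation, histone methylation, small RNA-directed methylation and chromatin compaction. None of the 24 was called by limma voom in h2a.w-2 against WT, where 0.0363% of 22010 features were called, or in h2a.w-1 against WT, where 4.65% of 22072 were called. At an unadjusted p under 0.05 there was 1 gene in h2a.w-2 (4.17%) and 8 in h2a.w-1 (33.3%), against 11.4% and 31.2% of all features tested, and limma with a mean-variance trend also called 0 in either mutant. The median log2 fold change of the list was 0.05 in h2a.w-2 and 0.17 in h2a.w-1, against 0.001 and -0.012 over all features tested.

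The gene nearest to a call in h2a.w-2 was ROS1, a DNA demethylase whose own transcript is known to depend on DNA methylation at its promoter. It had 556, 530 and 293 reads in h2a.w-2-labelled libraries, 955, 846 and 823 in h2a.w-1, and 996, 1162 and 736 in WT, and its log2 fold change in h2a.w-2 was -0.93 (SE 0.12, adjusted p = 0.0611 by limma voom). All 3 h2a.w-2-labelled libraries were below the WT libraries. In h2a.w-1, NRPE1, the largest subunit of RNA polymerase V, had a log2 fold change of 0.59 (adjusted p = 0.0232), and RDR2, which makes double-stranded RNA for the small RNA pathway, 0.57 (adjusted p = 0.0181), both by limma voom and both under the fold threshold. MET1 had log2 fold changes of -0.05 in h2a.w-2 and 0.35 in h2a.w-1, and DDM1 of -0.30 and 0.11. CMT3, which lies in the region reported as doubled in h2a.w-1, had -0.22 in h2a.w-2 and 0.23 in h2a.w-1 (adjusted p = 0.188 by limma voom). By RT-qPCR, the paper reports a raised CMT3 transcript in h2a.w-1 with extra copies of the gene, and a level similar to WT in h2a.w-2. A call here needed a log2 fold change beyond 1, so the absence of calls does not exclude smaller changes. These genes were named after their values were seen.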

How the data were processed

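RNA-seq of h2a.w-2, h2a.w-1 and WT seedlings was used, and the samples of the other assays (ChIP-seq, ATAC-seq, BS-seq) were left out. The authors trimmed reads (Trim Galore 0.5.0), aligned them to TAIR10 (STAR 2.7.0c), discarded reads aligning equally well to several places, removed PCR duplicates and counted on Araport11 features with htseq-count, so reads from identical TE copies are lost. TEs overlapping mostly with a TE gene were counted as that gene. The deposited signal is the mean normalized count per genotype, read counts divided by DESeq2 size factors that the authors set separately in each table. The deposited tables also hold the authors' fold changes, standard errors, statistics and p-values, which were not used.

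Single-library reads were recovered as the one combination of whole reads that gives each mean, for 99.7% of features. The 80 others reach a mean of at least 7008. WT reads came out the same from both tables for 29936 features. Libraries of a genotype differed beyond sampling noise (chi-square per degree of freedom 3.35 to 17.5). Reads were tested with limma 3.58.1 (voom, R 4.3.3, Benjamini-Hochberg adjustment over all features tested), and sums with exact permutation tests (scipy 1.17.1). Counting intervals are exact at 95%. The recovery of reads and the voom fit were tested on simulated data. Columns of per-sample values used in no step numbered 0. The named elements are the 12 highest in each mutant, those called between mutants and the 3 on each side of the WT threshold, and the named genes are the H2A.W genes. The rule also took silencing genes that were called, of which there were 0, so the silencing genes given were named after their values were seen. Elements, lists and tests were chosen with earlier results of these data known. Other thresholds, filters, scalings and left-out libraries were tried.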

Additional observations from a re-analysis of the deposited data

Results flagged for a closer look

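Levels in the 2 mutants were called different at 2 WT-silent elements. AT2TE27645 differed between h2a.w-2 and h2a.w-1 by a log2 fold change of 3.55, with 106 reads in h2a.w-2, 10 in h2a.w-1 and 1 in WT. AT5TE29590 differed by -2.50 on the same scale, with 6 reads in h2a.w-2, 35 in h2a.w-1 and 1 in WT. Both differences passed the limma voom test of h2a.w-2 against h2a.w-1, and the one at AT5TE29590 passed in none of the 6 fits that left out 1 library. With 6 reads in h2a.w-2, AT5TE29590 met the filter of 10 reads only through h2a.w-1, where it was high.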

How the results depend on the processing

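No paired analysis was possible because the deposited columns are group means and carry no replicate numbers. A WT mean of exactly 0 left 1525 elements in place of 2729. In h2a.w-2, the 114 elements at a mean of at least 1 became 60 with a WT mean under 0.5 and 169 with a WT mean under 2. They became 28 with a WT mean of 0, and the mirrored rule gave 66. In h2a.w-1, the 104 became 55 with a WT mean under 0.5, 160 with a WT mean under 2 and 23 with a WT mean of 0. The cause of these changes was not tested. With 1 library left out, counts ranged from 101 to 139 in h2a.w-2 and from 72 to 161 in h2a.w-1, where 161 was the count without library B of h2a.w-1. Between the mutants, 2 elements were called, 9 when features with at least 1 read were tested, and 1 in every fit that left out 1 library. The 9 were among 1902 elements tested at that setting, and the share of all features called there is not given. Of the 9, 7 had at most 10 reads in the 6 libraries. Several had reads in 1 mutant only and entered through it. AT1TE52220 had 4 reads in h2a.w-2 and 0 in h2a.w-1, and AT4TE44655 had 0 and 7. The difference in summed RPM ranged from 2.64 to 27.8 with 1 library left out. Counts of at least 3 reads, the read counts, mirrored counts, positions and chromosome values without the library labelled h2a.w-2 B, and the sum of 8.86 without AT2TE27645 and AT5TE29590, were chosen after seeing the data. Calls on the 24 silencing genes were 0 under every alternative run. With 5812579 to 9391308 reads per library, an element with fewer than 3 reads cannot be told from one with none, and the recovered reads rest on the published means.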
